A study of Mus musculus with 19 samples.

Results

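Livers of male *Hfe-/-* mice were set against livers of male wild-type mice. Of the 19 arrays of the series, 5 belong to this comparison, 3 from *Hfe-/-* and 2 from wild-type livers, and they were taken by their labels alone, with no use of a measured value. All the mice were C57BL/6, those of the *Hfe* experiment were kept on a standard rodent diet, and the *Hfe-/-* mice carry the disrupted gene in all their cells, so that liver and gut are both affected. The remaining arrays hold liver of mice fed an iron-supplemented (n = 3) or a control (n = 2) diet, and duodenum of the same 4 kinds of mice. They are used below only to show where these livers differ. Each array is an Illumina Sentrix Mouse-6 Expression Beadchip that measured total RNA of whole liver. In whole tissue, fewer cells of a type and less RNA per cell cannot be told apart.

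The labels give ages of 10, 11 and 12 weeks for the *Hfe-/-* livers and of 13 and 14 weeks for the wild-type livers, while mice of the diet experiment are labelled 16 to 18 weeks old. The duodena are labelled 10 and 11 weeks for *Hfe-/-* and 12 and 13 weeks for wild type. In each tissue the labelled age thus steps by 1 week from array to array, the wild-type ages differ between liver and duodenum, and the methods of the study describe *Hfe-/-* and wild-type mice of the same age. Whether the labelled ages are true ages is therefore uncertain. If they are, every wild-type liver came from an older mouse than every *Hfe-/-* liver, and age and genotype cannot be told apart.

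HFE is a membrane protein related to the major histocompatibility complex (MHC) class I molecules. In hepatocytes it takes part in sensing circulating transferrin iron together with transferrin receptor 2, and so in setting the output of hepcidin, the hormone (gene *Hamp*) that makes ferroportin leave the cell surface and thereby limits iron entry from the gut and from macrophages. Loss of HFE causes the most common form of hereditary hemochromatosis, in which the liver loads iron. Transferrin receptor 1 (gene *Tfrc*), which carries transferrin iron into cells, is regulated through the stability of its mRNA, which falls when cells hold much iron.

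Of the 46632 probes, 14160 were detected on 2 or more of the 5 arrays (detection p under 0.05) and were tested with limma. All levels below are log2 of the normalized bead signal, all differences are *Hfe-/-* minus wild type on that scale, and a result passed the test at a Benjamini-Hochberg adjusted p under 0.05. The test was passed by 4 probes (0.0282% of those tested), of which 3 were higher (0.0212%) and 1 was lower (0.00706%) in *Hfe-/-* liver. An unadjusted p under 0.05 was reached by 1266 probes (8.94%). The 14160 probes held 8454 named genes, each taken at its brightest probe, and 2 of these (0.0237%) passed, *Apoa4* and *Tfrc*. Between 12846 and 13019 probes were detected on each *Hfe-/-* array and between 13464 and 13636 on each wild-type array, so the wild-type livers had more detected probes. The part of this in the results was not tested.

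Because so few genes passed, the rest of the account describes size and overlap. A gene is called shifted below when, at its brightest probe, its difference was at least 1.4-fold and the ranges of the 2 groups did not overlap. The fold is the cutoff of the study. Some genes not called shifted met both criteria on another probe, among them *Hspd1*, *Psmb8*, *Dcn*, *Shmt2* and *Scarb1*. This description carries no test of its own. Non-overlap is easier to reach with fewer arrays and harder with more, so counts with arrays left out or added can move for that reason. It held for 112 of the 8454 genes (1.32%), of which 51 (0.603%) were higher and 61 (0.722%) lower in *Hfe-/-* liver. With each array scaled by its median in place of quantile normalization, 151 genes were shifted, 32 of them higher and 119 lower, so the split between the directions depends on the scaling. The median difference over all genes was -0.02, and 56.3% of genes lay below 0 and 43.7% above. An unadjusted p under 0.05 was found for 308 higher (3.64%) and 479 lower genes (5.67%). The *Hfe-/-* arrays correlated with each other at r between 0.9872 and 0.9898 over all probes, the wild-type pair at 0.9889, and arrays of different genotype at 0.9857 to 0.9885.

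**Figure D1:**
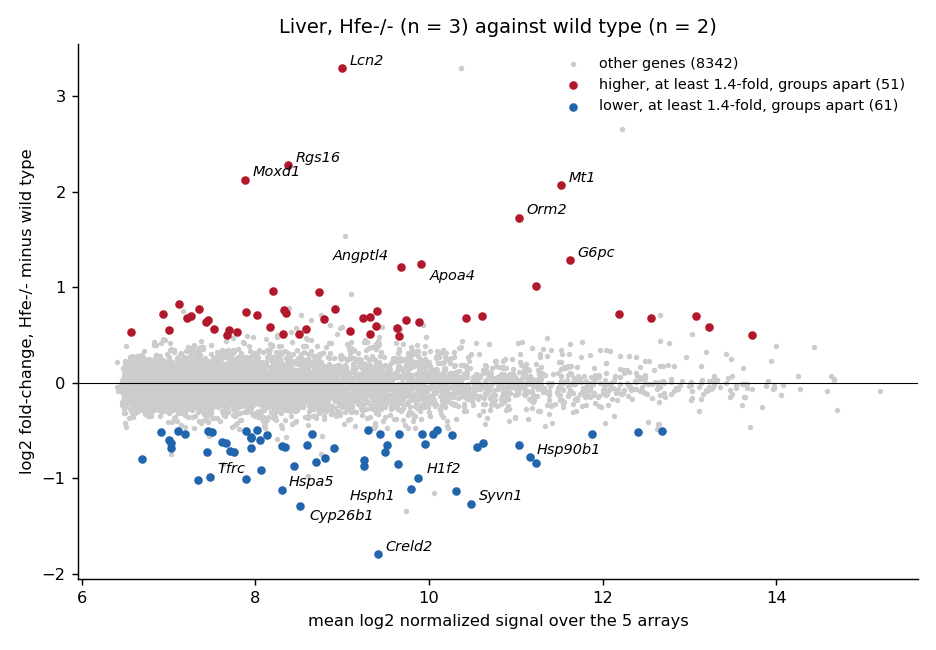
The log2 fold-change of each of the 8454 genes, *Hfe-/-* minus wild type, is plotted against its mean log2 normalized signal over the 5 arrays, with the shifted genes marked. The highest difference was 3.29 (*Saa2*, closely followed by *Lcn2*) and the lowest -1.80 (*Creld2*), and most genes lie close to 0.

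The transferrin receptor gene *Tfrc* fell in *Hfe-/-* liver. Its level was 7.04, 7.01 and 7.22 in the *Hfe-/-* livers and 7.97 and 8.17 in the wild-type livers, with no overlap. This is a difference of -0.98 ± 0.10 (SE), or 1.98-fold lower (adjusted p = 0.0471). The control-diet livers, at 7.68 and 7.53, lay between the groups, and the iron-diet livers were at 6.83, 6.69 and 7.02. In duodenum the *Tfrc* difference was -0.12.

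*Apoa4*, which encodes apolipoprotein A-IV of triglyceride-rich lipoproteins and high-density lipoprotein, rose. It was at 10.44, 10.20 and 10.57 in the *Hfe-/-* livers against 9.03 and 9.29 in wild type, a difference of 1.24 ± 0.13 or 2.37-fold (adjusted p = 0.0471). The second *Apoa4* probe read 8.40, 8.21 and 8.68 against 7.30 and 7.37, a difference of 1.09 that missed the threshold (adjusted p = 0.084). Both probes separated the groups without overlap. The control-diet livers were at 8.84 and 8.84 on the brighter probe, below the wild-type livers, and the iron-diet livers at 11.35, 11.80 and 11.51, above the *Hfe-/-* livers.

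The other 2 probes that passed have no gene name in the annotation used here. Probe ILMN_2417233 had the largest difference of all. It read 10.53, 10.44 and 10.35 in the *Hfe-/-* livers and 6.44 and 6.25 in the wild-type livers, where it was not detected. The difference was 4.10 ± 0.10 (adjusted p = 2.32e-06), and against the lowest detected signals of the wild-type arrays the probe was at least 14.7-fold higher. All 5 livers of the diet experiment read between 6.21 and 6.29. In duodenum the same probe read 8.71 and 8.75 in *Hfe-/-* mice and 6.39 and 6.48 in wild type, a difference of 2.30 ± 0.11 (adjusted p = 0.029) and at least 4.09-fold. It was the only one of 16599 duodenal probes to pass (0.00602%), with 1140 (6.87%) at an unadjusted p under 0.05. This was the one probe that passed in all 15 alternative analyses that tested it. Every *Hfe-/-* sample of either tissue was thus high for this probe and every other sample named here was low.

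Probe ILMN_1213448 read 9.28, 9.20 and 8.93 against 7.96 and 7.98, a difference of 1.17 ± 0.11 or 2.25-fold (adjusted p = 0.0471). The iron-diet livers were at 7.40, 6.98 and 7.42, below wild type. The calls of *Tfrc*, *Apoa4* and ILMN_1213448 all lie close to the threshold, and passed in 7, 6 and 9 of 16 alternative analyses. Without wild-type replicate 2 none of these 3 passed (adjusted p = 0.301, 0.155 and 0.205), while their differences stayed at -0.89, 1.38 and 1.18.

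**Figure D2:**
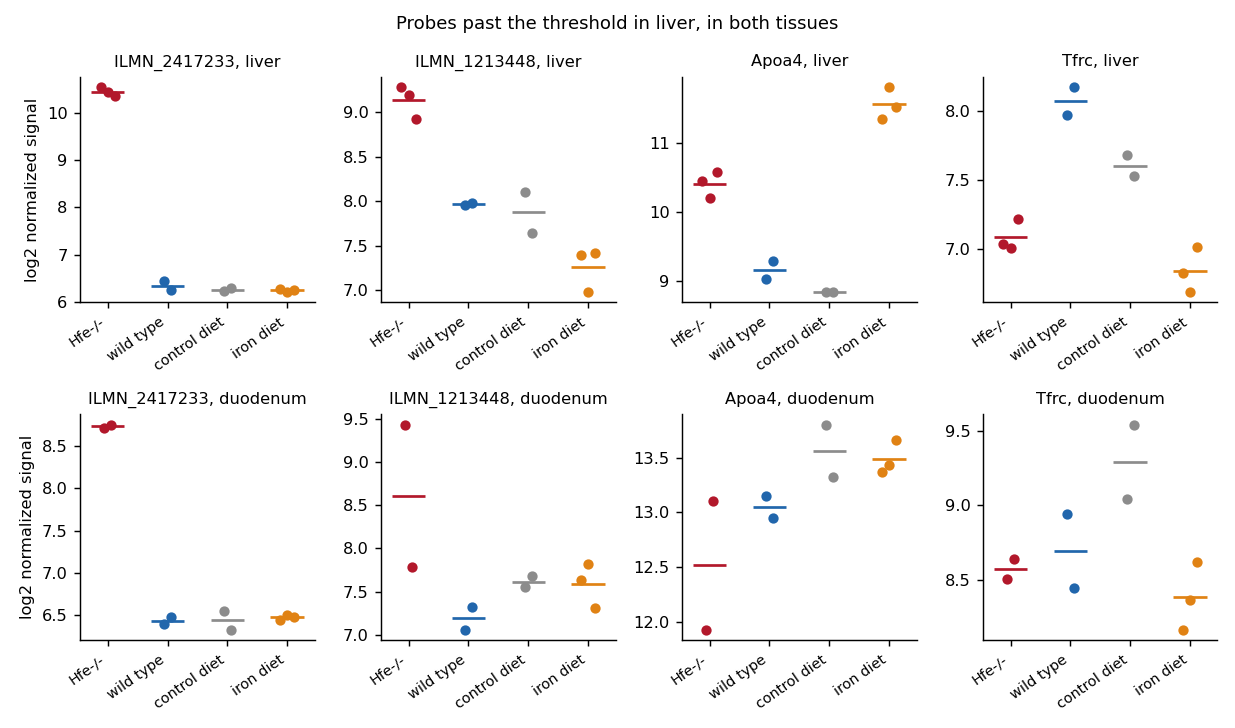
Log2 normalized signal of the 4 probes past the threshold in liver, with liver above and duodenum below, 1 point per array, grouped by *Hfe-/-*, wild type, control diet and iron diet. ILMN_2417233 separates *Hfe-/-* from all other arrays in both tissues (at least 14.7-fold in liver), whereas *Tfrc* and *Apoa4* in iron-diet liver lie on the *Hfe-/-* side of wild type.

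The *Hfe* probe itself did not tell the genotypes apart. It read 6.73, 6.67 and 6.50 in the *Hfe-/-* livers and 6.77 and 6.60 in wild type (difference -0.05 ± 0.10, adjusted p = 0.934), close to the lowest detected signal of the arrays. Where the probe lies relative to the disrupted part of the gene was not examined, so it does not check the labels.

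Hepcidin mRNA was not clearly different between the groups. *Hamp* read 12.81, 12.49 and 12.00 in the *Hfe-/-* livers and 12.70 and 13.14 in wild type, and these ranges overlap (difference -0.49 ± 0.23, adjusted p = 0.588). *Hamp2*, the second mouse hepcidin gene, differed by 0.11, and *Id1*, a target of bone morphogenetic protein (BMP) signalling, by 0.02. *Smad1*, a transducer of that pathway, was at -0.29 (adjusted p = 0.54). None of the 13 tested genes of a list of hepcidin and BMP-SMAD signalling was shifted, and their median difference was -0.01.

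Of 21 tested genes for iron uptake, storage and export, *Tfrc* was the only one that passed, and the median difference was 0.00. *Slc40a1*, which encodes the iron exporter ferroportin, read 11.52, 11.00 and 11.05 against 10.67 and 10.87, with no overlap and a difference of 0.42 ± 0.16 (adjusted p = 0.502). *Slc11a2*, for the iron importer DMT1, lay lower at -0.28 on its brightest probe (adjusted p = 0.487), while its other 2 probes differed by -0.11 and 0.21. Transferrin (*Trf*, -0.03) and the ferritin chains *Ftl1* (0.02) and *Fth1* (-0.01) were close to 0. *Tfr2*, the transferrin receptor that acts with HFE, differed by 0.13 on its brighter probe and by 0.39 on the other. Among 14 genes of heme synthesis and breakdown the median was -0.01 and no gene was shifted. Heme oxygenase 1 (*Hmox1*), which frees iron from heme, differed by 0.01.

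Chaperones of the endoplasmic reticulum (ER) and genes of the unfolded protein response lay mostly lower in *Hfe-/-* liver. When unfolded proteins build up in the ER, the sensors IRE1, PERK and ATF6 switch on such genes, many of them through an ER stress response element in the promoter. Of 36 tested members, 28 lay below 0, with a median of -0.25 against -0.02 for all genes. Shifted members numbered 9 (25%, against 1.32% of all genes), all of them lower, and 15 had an unadjusted p under 0.05, again all lower. None passed after adjustment. Without *Hfe-/-* replicate 2 the count of shifted members was 12, and with the control-diet livers added to the controls it was 1.

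*Hspa5*, which encodes the chief ER chaperone BiP, read 7.66, 8.12 and 7.79 in the *Hfe-/-* livers and 8.90 and 9.05 in wild type, a difference of -1.12 ± 0.14 or 2.17-fold lower (adjusted p = 0.084). *Hsp90b1*, for the ER chaperone GRP94, read 10.83, 10.92 and 10.79 against 11.74 and 11.51 (-0.78 ± 0.10, adjusted p = 0.084). *Serpinh1*, for the collagen chaperone HSP47, read 7.46, 7.45 and 7.37 against 8.05 and 8.23 (-0.71 ± 0.09, adjusted p = 0.084). All 3 separated the groups by more than the spread within either group. *Syvn1*, for the ubiquitin ligase HRD1 that clears misfolded ER proteins, read 9.72, 10.45 and 9.77 against 11.31 and 11.19 (-1.27 ± 0.20, adjusted p = 0.16). *Creld2*, an ER stress-inducible gene, read 8.05, 9.58 and 8.44 against 10.52 and 10.46, the lowest difference of any gene tested, at 3.47-fold lower (-1.80 ± 0.38, adjusted p = 0.24). *Hfe-/-* replicate 2 lay closest to wild type in *Hspa5*, *Syvn1* and *Creld2*.

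The other shifted members were *Sdf2l1* (-0.66), *Hyou1* (-0.63), *Pdia4* (-0.54) and *Selenos* (-0.49). *Xbp1*, for the transcription factor that IRE1 activates, lay lower without overlap but under the cutoff, at 11.86, 11.82 and 11.89 against 12.03 and 12.53 (-0.42, adjusted p = 0.445). For the integrated stress response, a related pathway driven by ATF4, the 13 tested genes had a median of -0.05 with none shifted, and *Ddit3*, for the stress factor CHOP, differed by 0.08.

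Promoters of 4 shifted ER genes are shown because they hold the ER stress response element, searched on both strands as CCAAT and CCACG with 9 bases of any kind between them. The sequences are from RefSeq on GRCm38.p6 and run from 250 bases before to 50 bases after the gene start. Capitals mark the element, in its reverse form where the match is on the other strand.

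Hspa5, chr2:34771840-34772139, plus strand: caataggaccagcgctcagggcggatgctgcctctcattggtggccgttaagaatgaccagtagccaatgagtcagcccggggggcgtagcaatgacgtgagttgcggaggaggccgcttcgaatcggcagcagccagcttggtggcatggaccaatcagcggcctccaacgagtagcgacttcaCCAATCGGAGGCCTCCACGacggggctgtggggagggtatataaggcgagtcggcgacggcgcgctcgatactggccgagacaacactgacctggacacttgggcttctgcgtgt
Hsp90b1, chr10:86705395-86705694, minus strand: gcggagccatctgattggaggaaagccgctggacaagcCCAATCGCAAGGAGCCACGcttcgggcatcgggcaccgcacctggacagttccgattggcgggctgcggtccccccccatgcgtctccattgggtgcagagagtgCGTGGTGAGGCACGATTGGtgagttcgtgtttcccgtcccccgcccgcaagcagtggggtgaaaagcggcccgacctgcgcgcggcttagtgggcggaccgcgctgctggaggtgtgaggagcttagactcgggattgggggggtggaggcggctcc
Creld2, chr15:88819396-88819695, plus strand: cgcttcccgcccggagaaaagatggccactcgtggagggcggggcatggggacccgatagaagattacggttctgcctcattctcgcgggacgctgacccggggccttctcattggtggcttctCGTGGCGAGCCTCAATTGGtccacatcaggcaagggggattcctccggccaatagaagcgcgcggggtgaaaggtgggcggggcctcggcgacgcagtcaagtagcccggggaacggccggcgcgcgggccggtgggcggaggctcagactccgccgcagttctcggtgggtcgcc
Syvn1, chr19:6046326-6046625, plus strand: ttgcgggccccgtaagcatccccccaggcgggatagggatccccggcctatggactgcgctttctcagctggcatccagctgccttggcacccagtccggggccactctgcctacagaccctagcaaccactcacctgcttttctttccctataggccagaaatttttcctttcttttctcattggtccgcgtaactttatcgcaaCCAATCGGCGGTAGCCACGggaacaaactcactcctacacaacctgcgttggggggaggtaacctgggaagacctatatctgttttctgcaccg

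The element was found in 8 of the 32 ER genes with a promoter in the table (25%) and in 12 of 6930 promoters of tested genes (0.173%). It was present in 4 of the 8 shifted ER genes with a promoter, the 4 above. *Canx*, *Derl3*, *Ero1b* and *Pdia6* hold it too and differed by 0.09, -0.28, -0.43 and -0.12. The shifted genes *Pdia4*, *Sdf2l1*, *Selenos* and *Serpinh1* do not hold these letters in the window. A match describes letters only. Of the other motifs searched, a STAT site (TTC-NNN-GAA) was present in 4 of 21 acute phase promoters (19.0%) and in 8.46% of all promoters of tested genes. Among the 6 shifted acute phase genes with a promoter, only *Itih4* holds it. A glucocorticoid response element (ACA-NNN-TGT-N-CT) was present in 2 of 18 glucocorticoid target promoters (11.1%) and in 0.924% of all. Among the 7 shifted target genes with a promoter, only *Lcn2* holds it.

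Cytosolic heat shock proteins, which keep proteins folded under control of heat shock factor 1, included several lower genes. Of 27 tested members 18 were below 0, as were 56.3% of all genes, and the median was -0.18. Shifted members numbered 5 (18.5%, against 1.32% of all genes), all lower, and none passed. The count of 5 became 8 with median scaling, 3 without *Hfe-/-* replicate 1 and 0 with the control-diet livers added to the controls. *Stip1*, which bridges HSP70 and HSP90, read 8.79, 8.97 and 8.93 against 9.51 and 10.03 (-0.87 ± 0.15, adjusted p = 0.16). *Hsph1*, for the HSP110 chaperone, read 8.97, 9.95 and 9.12 against 10.28 and 10.64 (-1.11 ± 0.27, adjusted p = 0.31). *Hspb8*, *Chordc1* and *Dnajb2* were shifted by -0.54, -0.53 and -0.49. The HSP40 gene *Dnajb1* differed by 0.01, and 8 tested mitochondrial chaperones had a median of -0.11 with none shifted at its brightest probe. The mitochondrial chaperonin gene *Hspd1* differed by -0.16 on its brightest probe. Its other probe was higher by 0.64, or 1.56-fold, without overlap.

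The heat shock element, searched on both strands as GAA-NN-TTC-NN-GAA or TTC-NN-GAA-NN-TTC, was present in 3 of 25 promoters of this list (12.0%) and in 46 of 6930 promoters of tested genes (0.664%). *Chordc1*, a cochaperone gene, and *Hsph1* hold it among the shifted genes. The *Chordc1* promoter is printed because its 3 overlapping matches sit at the gene start.

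Chordc1, chr9:18292017-18292316, plus strand: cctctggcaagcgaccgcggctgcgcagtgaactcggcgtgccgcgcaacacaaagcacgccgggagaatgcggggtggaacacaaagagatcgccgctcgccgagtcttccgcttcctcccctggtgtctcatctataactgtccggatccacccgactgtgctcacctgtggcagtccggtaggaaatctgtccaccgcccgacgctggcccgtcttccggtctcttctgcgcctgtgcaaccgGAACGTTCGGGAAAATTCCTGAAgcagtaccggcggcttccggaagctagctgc

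MHC class II molecules present peptides on antigen-presenting cells. Of the 10 tested genes of this group 7 lay below 0 and 3 above, with a median of -0.25. Shifted genes numbered 4 (40.0%, against 1.32% of all genes), all lower, and none passed. With the control-diet livers added to the controls the count was 0. *H2-Aa* read 8.39, 8.14 and 7.77 against 8.89 and 9.05 (-0.87 ± 0.17, adjusted p = 0.208). *H2-Ab1* (-0.83), *H2-Eb1* (-0.73) and the invariant chain *Cd74* (-0.68) went along with it. The second probes of *H2-Ab1* and *Cd74* differed by -0.34 and -0.19, both under the cutoff, and for *Cd74* the groups overlapped there. Genes of this family are alike in sequence, and their probes may share signal. The control-diet livers read 7.56 and 8.17 for *H2-Aa*, on the *Hfe-/-* side of wild type.

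*Cxcl9*, for a chemokine that attracts T cells, read 8.53, 8.24 and 8.24 against 8.97 and 9.00 (-0.65 ± 0.11, adjusted p = 0.16). *Cd8b1*, for the beta chain of the T cell coreceptor CD8, read 7.73, 7.87 and 7.83 against 8.37 and 8.45 (-0.60 ± 0.08, adjusted p = 0.114). Its second probe differed by -0.17. Of 16 T and NK cell markers 5 were tested, none brighter than 6.78 on average, and all 5 lay below 0. The defining genes *Cd3e*, *Cd4*, *Cd8a* and *Nkg7* were among those not detected on 2 arrays. Dendritic cell markers had 3 of 9 tested genes with a median of -0.08, and B cell markers 2 of 11 with a median of 0.00. Whether these cell types have a part in the MHC class II values was not tested.

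**Figure D3:**
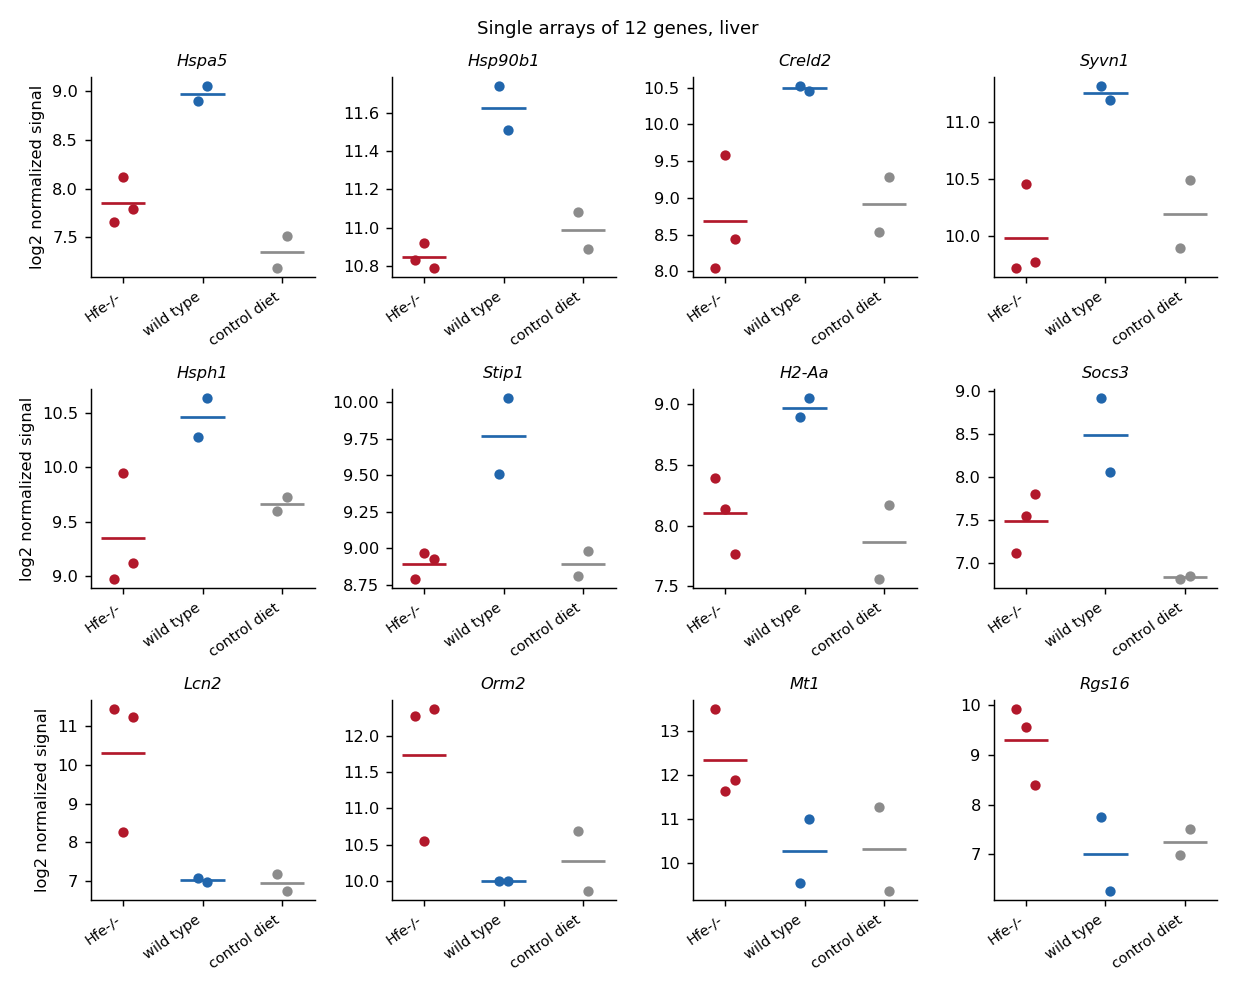
Log2 normalized signal of 12 genes in each liver array of the *Hfe-/-*, wild-type and control-diet groups, 1 point per array. The ER genes and *Hsph1*, *Stip1* and *H2-Aa* are lower in *Hfe-/-* than in wild type with control-diet livers mostly beside *Hfe-/-*, and *Lcn2* and *Orm2* are low in *Hfe-/-* replicate 2 (8.27 and 10.55) compared with the other *Hfe-/-* livers.

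Acute phase proteins, which hepatocytes secrete under interleukin-6 and interleukin-1, were higher, but unevenly among the *Hfe-/-* mice. Of 29 tested members 24 lay above 0, as did 43.7% of all genes, with a median of 0.38. Shifted members numbered 7 (24.1%, against 1.32% of all genes), all higher. None passed. *Lcn2*, which encodes lipocalin 2, a protein that binds bacterial iron carriers, read 11.44, 8.27 and 11.23 in the *Hfe-/-* livers against 7.07 and 6.98 (3.29 ± 0.82, 9.79-fold, adjusted p = 0.337). *Orm2*, for the serum protein orosomucoid 2, read 12.27, 10.55 and 12.36 against 10.00 and 10.00 (1.73 ± 0.48, adjusted p = 0.373). *Hfe-/-* replicate 2 was the lowest of its group in both genes.

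Serum amyloid A went further in that replicate. *Saa1* read 14.42, 11.15 and 14.27 against 10.07 and 11.17, so that replicate 2 overlapped with wild type (2.66 ± 0.89, adjusted p = 0.453). *Saa2* read 13.09, 8.83 and 13.12 against 7.86 and 8.91 (3.29 ± 1.17, adjusted p = 0.475). These genes are nearly identical, and their probes may not tell them apart. *Saa3* read 9.88, 8.05 and 11.01 against 8.21 and 8.01. Control-diet replicate 1 was also high in *Saa1*, at 12.77, against 10.01 in replicate 2.

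The mean of the acute phase list above the wild-type mean was 0.87, 0.20 and 0.96 in the 3 *Hfe-/-* livers, while the wild-type livers lay at -0.12 and 0.12 and the control-diet livers at 0.22 and -0.18. Other shifted members were *Serpina3n* (0.73), *Orm1* (0.70), *Lrg1* (0.58), *C1s1* (0.57) and *Itih4* (0.50). Haptoglobin, which binds free hemoglobin, differed by 0.38 on its brightest probe and by 1.12 ± 0.17 on the other (adjusted p = 0.137). The count of shifted members was 16 when *Hfe-/-* replicate 2 was left out, 14 when wild-type replicate 2 was, and 3 with median scaling or with the control-diet livers added to the controls.

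Genes of interleukin-6 signalling and its feedback had a median of -0.04 over 20 tested, and 1 was shifted in each direction (10% together, against 1.32% of all genes). *Il6ra*, for the interleukin-6 receptor, read 8.98, 9.43 and 9.26 against 8.70 and 8.2 (0.77 ± 0.17, adjusted p = 0.274), and its other 3 probes differed by 0.41, 0.33 and 0.30. *Socs3*, a feedback inhibitor that STAT3 induces, lay lower at 7.12, 7.54 and 7.80 against 8.92 and 8.06 (-1 ± 0.26, adjusted p = 0.353).

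Metallothioneins, small proteins that bind zinc and copper, were variable. *Mt1* read 13.50, 11.65 and 11.89 against 9.54 and 11.01 (2.07 ± 0.58, 4.19-fold, adjusted p = 0.379), and the wild-type livers themselves differed by more than a unit. The control-diet livers spanned a like range, 11.28 and 9.37. *Mt2* read 8.40, 7.43 and 7.32 against 6.99 and 7.13 (0.66, adjusted p = 0.563). The zinc importer gene *Slc39a4* was shifted by 0.66, and the 19 tested genes of metallothioneins and zinc transporters had a median of 0.00. The *Mt1* promoter is shown for its metal response elements, searched as TGCACNC or TGCGCNC on both strands and marked in capitals. It has 3 matches. This short motif was present in 10 of 16 promoters of the list (62.5%) and in 39.6% of all promoters of tested genes.

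Mt1, chr8:94178839-94179138, plus strand: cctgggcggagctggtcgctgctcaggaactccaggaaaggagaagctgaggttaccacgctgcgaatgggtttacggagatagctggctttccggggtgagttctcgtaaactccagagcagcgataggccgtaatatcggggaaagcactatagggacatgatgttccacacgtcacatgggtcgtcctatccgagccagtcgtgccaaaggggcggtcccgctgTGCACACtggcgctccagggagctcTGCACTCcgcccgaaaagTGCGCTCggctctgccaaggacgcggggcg

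Genes that glucocorticoids induce were mostly higher. Of 21 tested members 17 lay above 0, as did 43.7% of all genes, and the median was 0.40. Shifted members numbered 8 (38.1%, against 1.32% of all genes), all higher. The list shares *Lcn2*, *Mt1* and *Mt2* with the lists above. *Fkbp5*, a cochaperone of the glucocorticoid receptor, read 7.64, 8.18 and 7.79 against 7.24 and 7.50 (0.50, adjusted p = 0.439). *Tsc22d3*, for the glucocorticoid-induced leucine zipper, read 6.78, 7.79 and 7.11 against 6.65 and 6.68 (0.56, adjusted p = 0.58). *G6pc* and *Mfsd2a* were shifted by 1.28 and 0.75. The list mean was 0.56, 0.61 and 0.48 above wild type in the *Hfe-/-* livers, but single members were not even. The shared *Lcn2* (11.44, 8.27 and 11.23) was lowest in *Hfe-/-* replicate 2, and the shared *Mt1* (13.50, 11.65 and 11.89) was highest in replicate 1. *Fkbp5* and *Tsc22d3* were highest in replicate 2. Like means therefore do not show that the members rose alike in the 3 livers. In the control-diet livers the list mean stood at 0.56 and 0.21. With these added to the controls, 5 members were shifted and the median was 0.09, and without *Hfe-/-* replicate 2 the median was 0.12.

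*G6pc*, for the last enzyme of glucose release, read 12.31, 12.53 and 11.58 against 11.20 and 10.52 (1.28 ± 0.29, adjusted p = 0.274). The control-diet livers were higher than either group, at 13.77 and 13.63. *Slc2a2*, for the hepatocyte glucose transporter GLUT2, read 8.46, 8.62 and 8.69 against 7.92 and 7.33 (0.97 ± 0.17, adjusted p = 0.16). *Ppp1r3b*, for a glycogen-targeting subunit of protein phosphatase, was shifted by 0.63. These 3 were the shifted genes of gluconeogenesis and glycogen (14.3% of those tested, against 1.32% of all genes). Their number became 1 with the control-diet livers added to the controls, and 5 when *Hfe-/-* replicate 3 or wild-type replicate 1 was left out. *Pck1*, for the enzyme that commits carbon to gluconeogenesis, differed by 0.03. The 21 tested genes of gluconeogenesis and glycogen had a median of 0.05, and 16 lay above 0, as did 43.7% of all genes.

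Cholesterol synthesis genes lay slightly lower. Of 20 tested members 18 were below 0, as were 56.3% of all genes, with a median of -0.20. Shifted members numbered 3 (15%, against 1.32% of all genes), all lower. The count of 3 became 1 without *Hfe-/-* replicate 2, where the median was -0.11, and 5 without replicate 3, where it was -0.35. *Mvd*, for mevalonate diphosphate decarboxylase, read 6.22, 6.42 and 6.47 against 7.04 and 7.29 and was detected only in the wild-type livers, at least 1.5-fold lower in *Hfe-/-* (measured difference -0.79 ± 0.11, adjusted p = 0.114). *Lss* (-0.55) and *Hmgcs1* (-0.51) were the others, and *Hmgcs1* rested on replicate 2, at 12.92, 11.73 and 12.78 against 12.98 and 12.98. *Abcg5* and *Abcg8*, which together form the sterol exporter of hepatocytes, were both higher without overlap, by 0.48 and 0.45 (adjusted p = 0.233 and 0.24).

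In lipid handling, *Angptl4*, for an inhibitor of lipoprotein lipase, read 9.84, 10.64 and 10.00 against 9.17 and 8.73 (1.21 ± 0.23, adjusted p = 0.21), and *Lpin1*, for a phosphatidate phosphatase, was shifted by 0.95. The 27 tested genes of fatty acid oxidation and PPAR alpha targets had a median of -0.02, and the 26 of fatty acid and triglyceride synthesis one of -0.12. *Elovl5*, a fatty acid elongase gene, was shifted by -0.63. Among the 21 tested genes of apolipoproteins and lipoprotein assembly, *Apoa4* and *Angptl4* were shifted (9.52%, against 1.32% of all genes). The list had a median of 0.09 and a lowest difference of -0.13.

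Detoxification genes split. Of 40 tested genes of glutathione metabolism and NRF2 targets, *Gstm1* (-0.51), *Gsta1* (-0.53), *Gsta2* (-0.62) and the carbonyl reductase gene *Cbr1* (-0.79) were lower and *Gstt2* (0.67) was higher. *Gstt2* read 9.17, 9.06 and 8.95 against 8.48 and 8.31. Its other probe differed by 0.31, and the groups overlapped there. The *Gsta* and *Gstm* genes have close paralogs, so their probes may share signal. The median of this list was -0.07. Its shifted genes numbered 5 (12.5%, against 1.32% of all genes). This count became 2 when *Hfe-/-* replicate 3 or wild-type replicate 2 was left out, 8 when wild-type replicate 1 was, and 9 with median scaling. *Ugt1a1*, for the enzyme that conjugates bilirubin, read 8.42, 8.73 and 8.76 against 7.94 and 7.82 (0.76 ± 0.12, adjusted p = 0.16), and *Ugt1a6a*, which shares exons with it, was shifted by 0.69. Of 21 tested cytochrome P450 genes only *Cyp3a11*, a drug-metabolizing enzyme, was shifted, at 11.01, 10.71 and 10.60 against 11.46 and 11.38 (-0.65).

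Of 11 tested genes of sulfur amino acid metabolism 9 lay below 0, as did 56.3% of all genes, with a median of -0.15. Shifted genes numbered 2 (18.2%, against 1.32% of all genes), both lower. *Csad*, an enzyme of taurine synthesis, read 10.48, 10.82 and 11.39 against 11.78 and 11.69 (-0.84 ± 0.23, adjusted p = 0.364). *Cbs*, which starts the transsulfuration of homocysteine, was shifted by -0.65 on its brighter probe and differed by -0.31 on the other, where the groups overlapped.

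**Figure D4:**
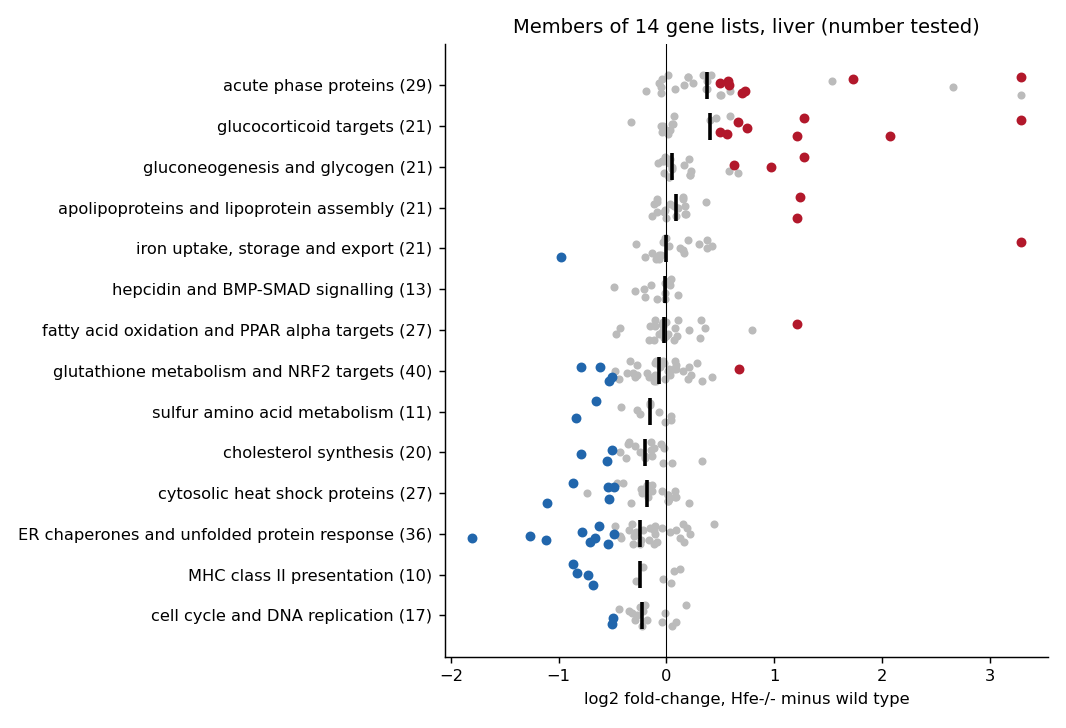
Log2 fold-change (*Hfe-/-* minus wild type) of the tested members of 14 gene lists, 1 point per gene, with the number tested beside each list name. ER chaperones (median -0.25) and MHC class II genes (-0.25) lie mostly left of 0, acute phase proteins (0.38) and glucocorticoid targets (0.40) mostly right.

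Among other genes with large differences, *Rgs16*, a regulator of G protein signalling that fasting and the clock control in liver, read 9.91, 9.56 and 8.40 against 7.75 and 6.27 (2.28 ± 0.51, adjusted p = 0.27), with a wide spread in both groups. The 17 tested clock genes had a median of 0.09. *Moxd1*, a monooxygenase gene, read 7.63, 9.39 and 9.18 against 6.52 and 6.69 (2.13 ± 0.45, 4.37-fold, adjusted p = 0.249). The *Moxd1* and *Rgs16* probes were each detected in only 1 of the 2 wild-type livers, and the 6.27 of *Rgs16* was a background reading. *Cyp26b1*, for an enzyme that breaks down retinoic acid, read 8.69, 7.55 and 7.77 against 8.93 and 9.65 (-1.29 ± 0.33, adjusted p = 0.339). *Phlda1* read 9.51, 9.27 and 10.78 against 11.00 and 10.97 (-1.13), with *Hfe-/-* replicate 3 near wild type.

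Smaller but tight differences were seen in several genes with unadjusted p close to that of *Tfrc*. *Entpd4*, for a nucleotidase of the Golgi and lysosome, read 9.35, 9.26 and 9.29 against 9.98 and 10.31 (-0.85 ± 0.11, adjusted p = 0.087). *Tubb4b*, a beta tubulin gene, read 9.71, 9.71 and 9.66 against 10.26 and 10.41 (-0.64 ± 0.08, adjusted p = 0.087). *Slc6a9*, for the glycine transporter GLYT1, read 9.53, 9.41 and 9.58 against 8.82 and 8.84 (0.68 ± 0.09, adjusted p = 0.084). *Tubb5*, another beta tubulin gene, was shifted by -0.53, but it was the only one of 34 shifted genes with several probes that had a probe of the opposite sign. The helicase genes *Mcm4* (-0.51) and *Mcm6* (-0.50) were the shifted ones among 17 tested genes of cell cycle and DNA replication (11.8%, against 1.32% of all genes). Of these 17 genes 14 lay below 0, as did 56.3% of all genes.

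The remaining higher genes include several of the secreted and membrane proteins of hepatocytes. *Plg*, for plasminogen, read 10.48, 10.66 and 10.93 against 10.03 and 10.00 (0.68 ± 0.13, adjusted p = 0.202). Its other 2 probes differed by 0.06 and 0.13. *Plg* was the one shifted gene of 32 tested for complement, coagulation and other secreted proteins (3.12%, against 1.32% of all genes). Of these 32 genes 23 lay above 0, as did 43.7% of all genes, with a median of 0.09. *Hpn*, for the membrane protease hepsin, read 9.21, 9.33 and 9.39 against 8.81 and 8.73 (0.54 ± 0.09, adjusted p = 0.16), and its other probe differed by 0.12. *Slc46a3*, for a lysosomal transporter, read 10.83, 10.78 and 11.07 against 10.14 and 10.24 (0.70 ± 0.11, adjusted p = 0.137). *Fn1*, for fibronectin, was shifted by 0.59. It stood with *Serpinh1* as the 2 shifted genes of 25 tested for fibrosis and extracellular matrix (8%, against 1.32% of all genes). The median of that list was 0.00.

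Several groups lay near the background. No gene was shifted among 26 tested genes of oxidative phosphorylation (median -0.07), 20 of cytosolic ribosomal proteins (-0.02), 22 of bile acid synthesis and transport (0.04), 18 male-biased (-0.02) and 10 female-biased liver genes (-0.02). *Mrps27* was the single shifted gene of 25 mitochondrial ribosomal proteins (median -0.07), and *Cxcl9* the single one of 27 genes of the interferon response, MHC class I and the immunoproteasome (median 0.03). The immunoproteasome gene *Psmb8* differed by 0.27 on its brightest probe. Its other probes differed by 0.02 and by 0.59, the latter without overlap. Immediate early genes, which respond within minutes to stimulation, had a median of -0.08 over 20 tested. Of these, 2 (10%, against 1.32% of all genes) were shifted, *Phlda1* and *Gadd45g* (-1.02). An unadjusted p under 0.05 was found for 5, all lower, against 5.67% of all genes in that direction.

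*Hfe* lies on chromosome 13 within a cluster of histone genes. Genes beside a targeted locus are inherited with it, so the neighbours were examined. Of the 50 genes on each side of *Hfe*, 25 were tested and none passed, while 6 had an unadjusted p under 0.05, and the median was -0.10. Over all genes 3.64% were higher and 5.67% lower at that unadjusted p. *H1f2*, for a linker histone, was the only shifted neighbour, at 9.33, 9.31 and 9.77 against 10.49 and 10.44 (-1 ± 0.14, adjusted p = 0.114). Of 13 tested histone genes there 9 lay below 0, as did 56.3% of all genes. In duodenum *H1f2* differed by -0.44. Over the whole of chromosome 13, 8 of 298 tested genes were shifted (2.68%), against 1.32% of all genes. This was the highest share of any chromosome, followed by chromosome 17 (11 of 414, 2.66%) and chromosome 16 (6 of 266, 2.26%). Whether the position beside *Hfe* has a part in this was not tested.

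Livers of the mice on the control diet, which have an intact *Hfe* gene, show how far wild-type levels can vary between the 2 experiments. They differ from the wild-type livers in diet and labelled age, and their clock output gene *Dbp* was at 6.71 and 7.53 against 11.19 to 11.99 in the *Hfe-/-* and wild-type livers. Of the 51 higher genes, 31 had a control-diet mean nearer to wild type and 20 nearer to *Hfe-/-*. Of the 61 lower genes, 24 were nearer to wild type and 37 nearer to *Hfe-/-*. By group, 7 of the 9 shifted ER genes, all 5 heat shock genes and all 4 MHC class II genes were nearer to *Hfe-/-*. *Hspa5*, for example, read 7.19 and 7.51 in the control-diet livers, below all 3 *Hfe-/-* livers. By contrast 6 of the 7 shifted acute phase genes and all 4 lower glutathione genes were nearer to wild type, as was *Tfrc*. With the control-diet livers added to the controls, 80 genes were shifted, 38 higher and 42 lower, of which 1 was an ER gene, none a heat shock gene and none an MHC class II gene.

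**Figure D5:**
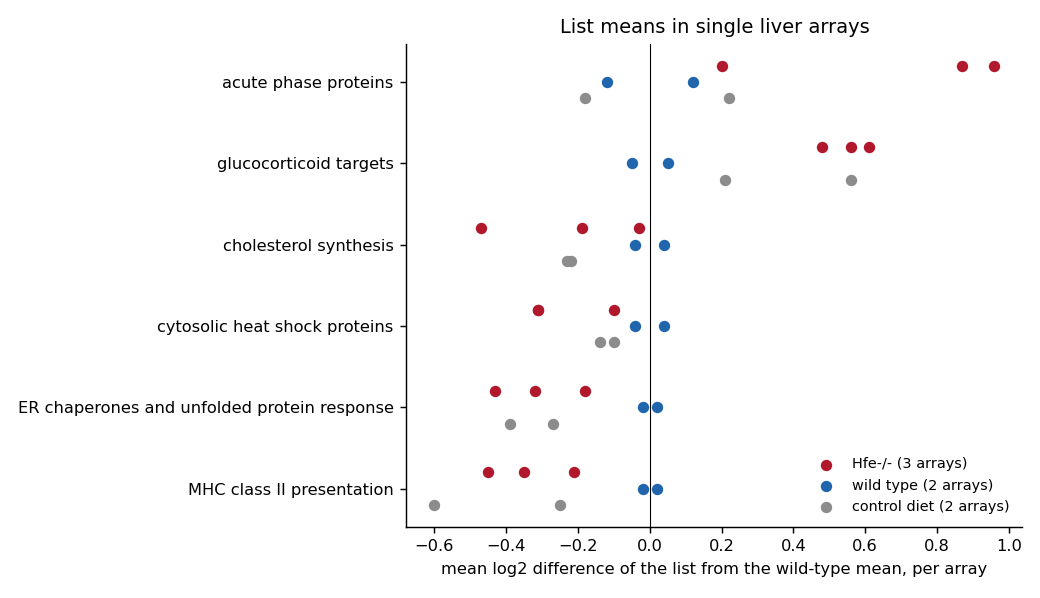
Mean log2 difference of each gene list from the wild-type mean, 1 point per liver array, for the *Hfe-/-*, wild-type and control-diet groups. For ER chaperones the *Hfe-/-* livers (-0.43, -0.18, -0.32) and the control-diet livers (-0.39, -0.27) lie together, and for acute phase proteins *Hfe-/-* replicate 2 (0.20) lies beside the controls.

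The study itself chose genes by their spread, ranking all probes by their SD over these arrays, keeping the top 0.6% and then those at least 1.4-fold apart, with no filter on p. On the present values that rule took 280 probes, with an SD of at least 0.374, and 181 of them were at least 1.4-fold apart. These were 106 higher probes (0.227% of 46632) and 75 lower probes (0.161%), with 76 and 59 named genes and 22 and 14 unnamed probes. The largest higher genes by that rule were *Saa2*, *Lcn2* and *Saa1*, in which *Hfe-/-* replicate 2 stood far below the others. Among the largest lower genes *Foxq1*, a forkhead factor gene, read 8.44, 8.49 and 10.65 against 10.24 and 10.83, so that the groups overlapped. The study did not rest on these arrays alone. By quantitative RT-PCR on larger groups of mice it reported *Saa1*, *Saa2* and *Lcn2* as higher. It reported *Hamp* as lower, and also *Hamp2*, which on the present arrays differed by 0.11. It named *Foxq1* a false positive of the arrays.

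The effect of *Hfe* loss was also set against that of the iron-supplemented diet in liver, by a test of the difference between the 2 effects. Of 13382 probes, 137 (1.02%) passed, with the *Hfe* effect above that of the diet in 68 (0.508%) and below it in 69 (0.516%). That number was 34 with median scaling and 4 when control-diet replicate 1 was left out. Of the 112 shifted genes 110 were tested and 22 passed, and in 20 of these the 2 effects had opposite signs. These genes were picked by a large *Hfe* difference, which is part of the tested contrast. That choice favours both passing and opposite signs, so the counts carry no further meaning. Some of the diet effects were small, such as -0.13 for *Tcim* and 0.15 for *Cd8b1*. *Angptl4* differed by 1.21 in *Hfe-/-* liver and by -1.05 on the iron diet (difference of effects 2.26, adjusted p = 0.0093). *H2-Aa* differed by -0.87 and 0.84 (adjusted p = 0.0387), and *Socs3* by -1 and 0.87 (adjusted p = 0.0347). *Apoa4* was higher in both, by 1.24 and 2.71 (adjusted p = 0.0112). For *Tfrc* the effects were -0.98 and -0.76 and their difference did not pass (-0.22 ± 0.16, adjusted p = 0.582). On these arrays *Hamp2* was not shifted in *Hfe-/-* liver (0.11) and was 3.34 higher on the iron diet (adjusted p = 0.0199 for the difference of effects). *Hamp* differed by -0.49 and 0.82 (adjusted p = 0.0876).

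In duodenum, which by the methods came from the same mice, the 15 shifted genes with the lowest p in liver in each direction were examined, and 28 of these 30 were tested. For 12 of them the 2 *Hfe-/-* and the 2 wild-type duodena were apart in the direction of the liver, and for 4 in the opposite direction. Among all genes tested in both tissues this held for 1616 of 7689 (21%) and for 1432 (18.6%). The genes that went the opposite way were *Hspa5* (0.43 in duodenum), *Syvn1* (0.35), *Gstt2* (-0.30) and *Angptl4* (-0.18). *Serpinh1* differed by -1.20 in duodenum (adjusted p = 0.47), *Entpd4* by -0.91, the mitochondrial ribosomal protein gene *Mrps27* by -0.70 and *Slc6a9* by 1.21. *Mrps27* and *Entpd4* thus had differences of like size in both tissues, -0.69 and -0.85 in liver.

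Markers of the cell types in liver differed little between the groups. The 9 tested hepatocyte markers had a mean level of 12.25 to 12.30 in the *Hfe-/-* livers and of 12.18 to 12.32 in wild type, and the albumin probe was near background at 6.47 to 6.82, while *Apoa1* (14.60 to 14.72) and *Ttr* (13.56 to 13.77) were bright. Kupffer cell and macrophage markers all lay above 0, with 10 of 14 tested, a median of 0.10 and a highest difference of 0.42. Endothelial markers (11 of 13 tested) had a median of 0.03 and stellate cell markers (8 of 12) one of -0.08. Of the blood markers, 5 of 10 were tested with a median of -0.13. Neutrophil markers, whose defining genes *Mpo*, *Elane* and *Ly6g* were not detected on 2 arrays, had 4 of 12 tested and a median of -0.03, beside the high *Lcn2* and *Saa3* values. Their part in those values was not tested. Pancreatic and gut markers had 1 of 12 tested and muscle markers 0 of 6.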

How the data were processed

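Total RNA of whole liver (and of duodenum) was labelled and hybridized to Illumina Sentrix Mouse-6 Expression Beadchips. The deposited table holds linear bead intensities, left by the authors without background subtraction or normalization. It also holds a deposited detection p-value for each probe and array, from the scanner software. Another deposited table holds log2 values that the authors had quantile-normalized in Chipster, and it served as an alternative. Replicate numbers 1 and 2 of the *Hfe-/-* livers are exchanged from the one table to the other (r = 0.987 and 0.9869 with the own column against 1 and 0.9997 with the other). Both are of the same group, and the numbers of the intensity table are used here.

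The 46643 entries gave 46632 probes after the entries of 11 repeated identifiers were averaged. Of these, 29976 had 1 gene symbol, 10 had several and 16646 had none. RefSeq accessions gave the symbol for 26077 probes and updated 12 symbols. The columns left without a sample numbered 0.

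Quantile normalization was run over the intensities of all 10 liver arrays, followed by log2, and no background was corrected. limma 3.58.1 in R 4.3.3 (lmFit, eBayes) was then fitted on the 5 arrays to the probes detected (p under 0.05) on 2 or more of them, with Benjamini-Hochberg adjustment over all probes tested. Files were read with data.table (version 1.17.8). The effect of *Hfe* loss minus that of the iron diet was fitted on the 10 liver arrays. The wild-type and *Hfe-/-* groups have 2 and 3 arrays, and their number limits the precision. The labels call them replicates and do not say which share a mouse with a duodenum, so that p-values measure the spread between these arrays. Each gene was taken at its brightest probe. A probe undetected in all arrays of a group was given as a lower bound against the lowest detected signal of each array. The scripts were tested on simulated data.

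Genes named are those past the threshold, those with the lowest p or the largest differences, the shifted members of each gene list with a few that define the list, and *Hfe* with its neighbours. The comparison, the lists and the rule were chosen with earlier results of these data known. No test was run on a list. *Foxq1* was named after its values were seen. Alternatives varied the normalization, background correction (normexp, offset 50), detection filter, variance model, arrays in the fit, replicate block and single arrays left out. Those on counts of shifted genes and list members were added after seeing the data.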

Additional observations from a re-analysis of the deposited data

Results flagged for a closer look

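The values here drew attention because the *Hfe* effect in liver differed from the iron-diet effect in liver, by a limma test of the difference between these effects with adjusted p between 0.0093 and 0.0429. Values in parentheses are the *Hfe* effect minus the diet effect on the log2 scale. The *Hfe* effect lay above the diet effect for ILMN_1213448 (1.78), *Angptl4* (2.26), *Ppp1r3b* (1.6), *Il6ra* (1.82), *Obp2a* (1.17), *Slc46a3* (0.89), *Slc6a9* (0.83), *Vasn* (1.21), *G6pc* (1.91), *Tcim* (0.81) and *F2r* (1). It lay below for *Apoa4* (-1.46), *Gstm1* (-1.21), *H1f2* (-1.47), *Tubb4b* (-0.83), *Mvd* (-1.1), *Hspb8* (-1.1), *Cd8b1* (-0.74), *Socs3* (-1.88), *Ces1e* (-1.31), *Mrps27* (-0.62), *H2-Aa* (-1.72) and *Lss* (-1.14). *Obp2a* was not detected in the wild-type livers and *Mvd* not in the *Hfe-/-* livers, so their differences rest on readings at background and are only approximate. For *Apoa4* and *Mrps27* both effects had the same sign, and for all the others named here the signs were opposite. All were picked by their *Hfe* difference, which favours opposite signs among those that pass, and some diet effects were small. The diet experiment has its own 2 control livers, and without control-diet replicate 1 the number of probes that passed this test was 4 in place of 137.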

How the results depend on the processing

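The number of probes past the threshold, 4, moved with most settings. It was 1 with quantile normalization over the 5 arrays, 9 with median scaling (2 higher, 7 lower), 1 with the authors' normalized values, 25 with no detection filter, 11 with a trended and robust variance, 8 with all 10 liver arrays in a single fit, and 8 when the rule of the study on SD and fold chose the probes tested. It was 0 among the 10609 probes detected on all 5 arrays, where limma gave 1036 at an unadjusted p under 0.05 and ILMN_2417233 was not tested. Leaving out single arrays gave 1 to 21 probes, the lowest when wild-type replicate 2 was dropped and the highest when *Hfe-/-* replicate 2 was. Dropping *Hfe-/-* replicate 1 or 3 gave 2 or 7 probes, and dropping wild-type replicate 1 gave 12. The 21 include *Lcn2*, *Saa1*, *Saa2*, *Orm1*, *Orm2*, *Hspa5*, *Creld2* and *Syvn1*. The number of shifted genes, 112, ranged from 139 to 270 with single arrays left out, with 270 when wild-type replicate 1 was dropped and 178 when replicate 2 was. Ranges of fewer arrays are apart more easily, so a rise is favoured whichever array is dropped.

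The replicate block gave 9 probes, of which 2 were among the 4. Only replicate numbers 1 and 2 occur in both groups, and they were not taken as pairs. The deviations of same-numbered arrays from their group means correlated at -0.02 and -0.15. The deviations of 2 wild-type arrays mirror each other, so these correlations cannot show whether arrays are paired.

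The difference between the *Hfe* and diet effects, 137 probes, fell to 34 with median scaling, gave 96 with the replicate block, and ranged from 4 to 196 with single arrays left out (4 or 84 when control-diet replicate 1 or 2 was dropped, 57 or 78 for iron-diet replicate 2 or 3, 52 for wild-type replicate 2 and 73 for *Hfe-/-* replicate 3). With the control-diet livers added to the controls, *Tmem254a* turned to 0.03 and *G6pc* to -0.14, and *Tfrc* lost its call (-0.75, adjusted p = 0.244). Of the values of single genes under all alternatives, 1694 kept direction and side of the threshold, 26 lost and 60 gained the call. The cause of these changes was not tested.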
